A study of Mus musculus with 24 samples.

Results

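Cochleae of mice lacking the α9 nicotinic acetylcholine receptor subunit were compared between hearing onset (postnatal day 13, P13) and adulthood (P60). The comparison used 6 of the 24 arrays of the series, taken by their labels as all arrays of the knockout at these ages, 3 at P13 and 3 at P60. Each array carried RNA from 1 pool of cochleae. The design text gives 3 to 5 mice per pool and the study's methods 4 to 6 cochleae at these ages, and the 2 statements were not reconciled here. The pools are labelled as biological replicates, so the spread between arrays is that between pools.

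All groups shared 1 genetic background, a hybrid of 129S6 and CBA/CaJ mice that had been backcrossed to CBA/CaJ. The knockouts carried a constitutive null allele of Chrna9, so that the receptor was missing at every age and in every tissue, and no treatment was given. The wild type arrays of P13 and P60, 3 each, and the knockout arrays of P3 and P7 served for comparison. Each measurement was a log2 signal of an oligonucleotide array, on which 1 unit is a doubling, and for each of 18195 genes the probe set with the highest mean over all 24 arrays was used. A gene passed when limma, a linear model with a moderated test, gave an adjusted p under 0.05 (Benjamini-Hochberg over all genes). In the text a difference is always the mean of P60 minus the mean of P13.

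The cochlea turns sound into nerve signals by means of hair cells, which sit in an epithelium between fluid spaces inside a bony capsule. Efferent fibers from the brainstem inhibit outer hair cells through a receptor made of α9 and α10 subunits, and before hearing they also contact inner hair cells. Around hearing onset the tectorial membrane is complete, the endocochlear potential has been built by the stria vascularis, and spiral ganglion neurons begin to carry sound-evoked activity. The capsule is cartilage that becomes bone after birth, and its marrow spaces hold blood-forming cells.

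Chrna9, the gene that was deleted, has the gene ID 231252 and lies on chromosome 5 (65934854 to 65977486, GRCm38.p6). Its signals were low in all arrays. In the knockout its log2 signal was 5.37, 5.22 and 5.19 at P13 and 5.37, 5.43 and 5.36 at P60. The wild type arrays had 5.50, 5.14 and 5.13 at P13 and 6.40, 5.80 and 5.68 at P60, so the genotypes overlapped at P13 and were apart at P60. The array median was 6.65. No source used here says whether the probe set lies in the deleted part, and the signal therefore does not check the genotype.

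The tissue label was met by genes of the cochlea. Otos, which encodes otospiralin of the fibrocytes, had log2 signals of 14.01, 14.17 and 14.32 at P13 and 13.94, 14.01 and 13.82 at P60. Coch, the cochlin gene, had 12.99 to 13.63 at P13 and 13.86 to 13.97 at P60. Of the hair cell genes, Myo7a, the unconventional myosin of the hair bundle, had 7.26 to 7.89 and 7.09 to 7.73, while Slc26a5, the gene of the outer hair cell motor prestin, had 4.40 to 4.75 and 4.43 to 4.57 and so lay under the array median in all 6 arrays. In RNA of whole pools, fewer cells of a type and less RNA per cell cannot be told apart.

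Arrays of 1 age were alike, with Pearson r over genes of 0.980 to 0.990 at P13. At P60 replicates 1 and 2 had 0.990, but replicate 3 had 0.967 with replicate 1 and 0.964 with replicate 2 and stood apart. Spiked poly-A control transcripts, which are added before labeling, were present in P13 replicate 1 and all P60 arrays and absent from P13 replicates 2 and 3. Gapdh control probes at the 3′ end exceeded those at the 5′ end by -0.17 to 0.38 in the 6 arrays. Genes known from other tissues differed between pools of 1 age, and those given here were chosen after their values were seen. Gh, the growth hormone gene of the pituitary, had 14.03 in P60 replicate 1 and 9.95 in P13 replicate 2, against 5.96 to 8.12 in the rest. Htr2c, a serotonin receptor abundant in choroid plexus, had 8.51 in P60 replicate 2 against 4.78 to 6.26 in the rest. Ucp1, the uncoupling protein of brown fat, had 12.37 in P60 replicate 3 against 7.11 to 8.79 in the rest. The oligodendrocyte gene Mobp had 5.68 in P13 replicate 1 against 8.48 to 10.92 in the rest. The part of these tissues in the results was not tested.

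Between P13 and P60, 1038 of 18195 genes rose (5.7%) and 1119 fell (6.15%) in knockout cochleae. A difference of at least 1.5 on the log2 scale was reached by 342 of the genes that rose (1.88% of all) and by 299 of those that fell (1.64%). Lists with many members that fell were those of cell division, DNA replication, B cells, osteoblasts and collagens. Lists with many members that rose were those of adult muscle, cerebellar neurons and synaptic vesicles. The median difference of all genes was -0.04.

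These counts moved with single pools. Leaving out P13 replicate 1, 2 or 3 gave 369, 515 or 450 genes higher and 529, 527 or 688 lower, and leaving out P60 replicate 1, 2 or 3 gave 458, 485 or 1558 higher and 561, 648 or 1431 lower. With only the arrays that held poly-A controls, 1 pool against 3, 106 genes were higher and 118 lower. On the deposited values, whose array medians were 6.82 to 6.89 at P13 and 6.64 to 6.66 at P60, 689 genes were higher and 4282 lower, so that higher genes made up 13.9% of those that passed against 48.1% after quantile normalization. With arrays centred on their medians, the share was 36.1%. Differences below are on the quantile-normalized scale, where all genes had a median near 0, against -0.35 on the deposited one.

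**Figure D1:**
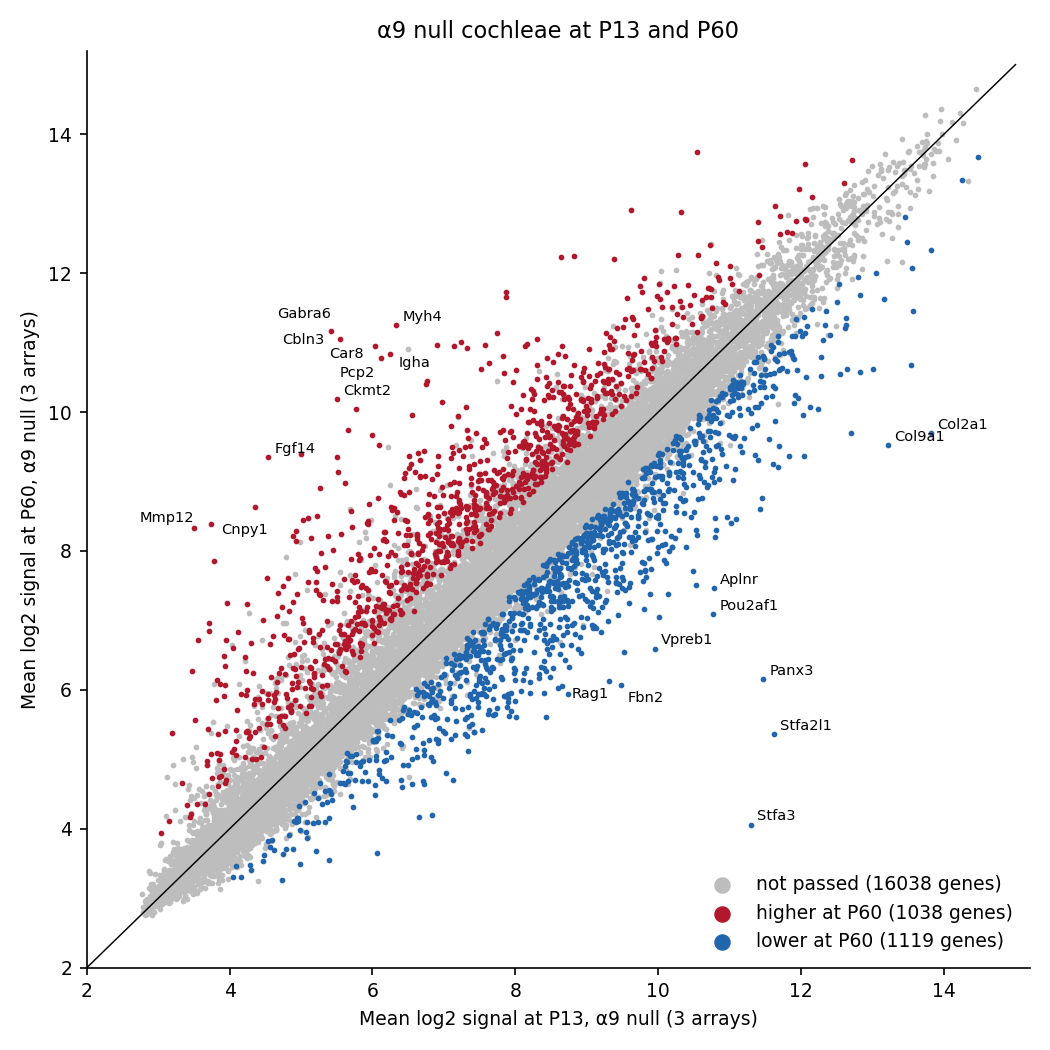
Mean log2 signal of each gene at P13 (horizontal) and P60 (vertical) in α9 null cochleae, each mean over 3 arrays, with genes that passed in red (1038 higher) and blue (1119 lower) and equal signal on the line. The 10 largest rises and the 10 largest falls are named, and Stfa3 and Stfa2l1 lie farthest below the line.

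Genes of cartilage and bone were among those that fell. Panx3 (gene ID 208098, chromosome 9 of GRCm38.p6, 37659902 to 37669222), a pannexin channel of osteoblasts and chondrocytes, had log2 signals of 11.60, 11.36 and 11.46 at P13, while its P60 pools lay between 5.98 and 6.50. It fell by 5.31 (standard error 0.19, limma adjusted p = 5.89e-05). Col2a1 (gene ID 12824, chromosome 15, 97975602 to 98004724), the major collagen of cartilage and of the tectorial membrane, had 13.94, 13.82 and 13.69 at P13 and 9.25, 9.45 and 10.41 at P60. It fell by 4.12 (standard error 0.30, limma adjusted p = 0.000782), or 17.3-fold. Groups without overlap were a condition for naming Panx3 and Col2a1 among the largest falls. For Col2a1, P60 replicate 3 was highest among the adult pools.

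Of 24 measured cartilage genes, 7 fell and 2 rose, with a median of -0.66. The members that fell were mostly collagens, namely Col9a1 (13.14, 13.19 and 13.32 at P13 against 9.57, 9.65 and 9.37 at P60), Col11a1 with a difference of -2.87 and Col9a3 with -2.82. These chains build the mixed fibrils of cartilage and are also found in the tectorial membrane. Acan, the gene of the proteoglycan aggrecan, had a difference of -0.65 and did not pass. The 2 members that rose, Cilp and Prg4, encode matrix proteins of articular cartilage and joint surfaces, and Cilp did not pass without any 1 P13 pool or P60 replicate 2.

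Of 28 fibrillar and other collagen genes 14 fell and 0 rose, and the median was -1.15. Col5a2, a chain of the fibril that nucleates collagen I fibers, had 13.87, 13.40 and 13.41 at P13 and 11.15, 11.43 and 11.77 at P60, a difference of -2.11. Col1a2 fell by 0.80, and its partner Col1a1, the main protein of bone, had 14.58, 14.28 and 14.15 at P13 against 13.07, 12.89 and 14.01 at P60 and did not pass (limma adjusted p = 0.0673). Col1a2 passed without P60 replicate 3 but not without any other pool. Of 34 genes that process collagen or assemble matrix, 13 fell. Lox, the enzyme that crosslinks collagen and elastin, had 12.85, 12.63 and 12.62 at P13 and 9.50, 9.70 and 9.90 at P60 and fell by 3.00 (standard error 0.17, limma adjusted p = 0.000335). Fbn2, the fibrillin of developing microfibrils, fell by 3.41, and the matrix protein gene Tnc fell by 1.78. The collagen count was 20 without P60 replicate 3 and 9 without P13 replicate 2 or P60 replicate 1, and that of collagen processing was 21 without P60 replicate 3 and 7 without P13 replicate 1 or 2 or P60 replicate 1 or 2.

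Of 17 osteoblast and osteocyte genes 12 fell and 1, Fgf23, rose, though not without any 1 of the 6 pools, with a median of -1.48. Ifitm5, a membrane protein of mineralizing osteoblasts, had 10.94, 10.41 and 10.10 at P13 and 7.29, 7.72 and 8.12 at P60. Ibsp, the bone sialoprotein gene, had 13.61, 13.59 and 13.45 against 12.08, 12.16 and 11.97, and so remained among the strong signals of the adult pools while it fell by 1.48. Sp7, the transcription factor that directs cells into the osteoblast lineage, fell by 1.64. Of 16 osteoclast genes 9 fell and 0 rose, with a median of -1.44. Ctsk, the protease by which osteoclasts digest bone collagen, had 13.60, 12.95 and 12.46 at P13 and 10.54, 10.45 and 10.87 at P60, a difference of -2.38. The osteoblast count was 7 without P13 replicate 1 or P60 replicate 1, and 8 without P13 replicate 2. The osteoclast count was 3 without P60 replicate 1 or 2, 4 without P13 replicate 2 and 6 without P13 replicate 1.

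Genes of cell division fell nearly throughout. Of 49 measured genes of the cell cycle and mitosis 43 fell and 0 rose, with a median of -1.85, and of 32 genes of DNA replication 29 fell and 0 rose, with a median of -1.38. Aurkb (gene ID 20877, chromosome 11 of GRCm38.p6, 69045624 to 69051664), the kinase of the chromosomal passenger complex, had 8.72, 8.80 and 8.74 at P13 and 6.46, 6.47 and 6.08 at P60 and fell by 2.42 (standard error 0.17, limma adjusted p = 0.000739). Top2a, the topoisomerase that untangles replicated DNA, had 11.41, 11.57 and 11.21 at P13 against 9.69, 9.59 and 8.66 at P60. Mki67, the gene of the proliferation marker Ki-67, had 12.54, 12.63 and 12.73 against 11.70, 11.33 and 11.03. For all 3 genes P60 replicate 3 was the lowest pool.

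Uhrf1, which reads hemimethylated DNA behind the replication fork, fell by 2.13, and the helicase gene Mcm3 by 1.60. Mcm2, another subunit of that helicase, had a difference of -0.50 and did not pass. The counts were 40 to 46 for cell division and 24 to 29 for replication when any 1 pool was left out. With 1 P13 pool that held poly-A controls against the 3 adult pools, the medians of the 2 lists were -1.90 and -1.49.

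The cell division genes did not decline steadily with age in the knockout. Their mean log2 signal, averaged over the 49 genes in each array, was 8.26 to 8.65 at P3, 8.48 to 8.60 at P7, 9.19 to 9.33 at P13 and 7.13 to 7.77 at P60. The P13 arrays thus had the highest signal of the 4 ages, and the fall to P60 started from that level. Over the same ages the mean of 24 B cell genes went from 5.73 to 6.09 at P3 and 6.57 to 6.96 at P7 to 8.59 to 8.89 at P13, and was 6.94 to 7.19 at P60. That of 17 osteoblast genes was 10.63 to 10.88, 11.32 to 11.53, 10.60 to 11.28 and 9.36 to 9.72 in turn. One of the P3 arrays, replicate 2, had low 5′ control signal, with the 3′ end of Gapdh higher by 6.67.

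**Figure D2:**
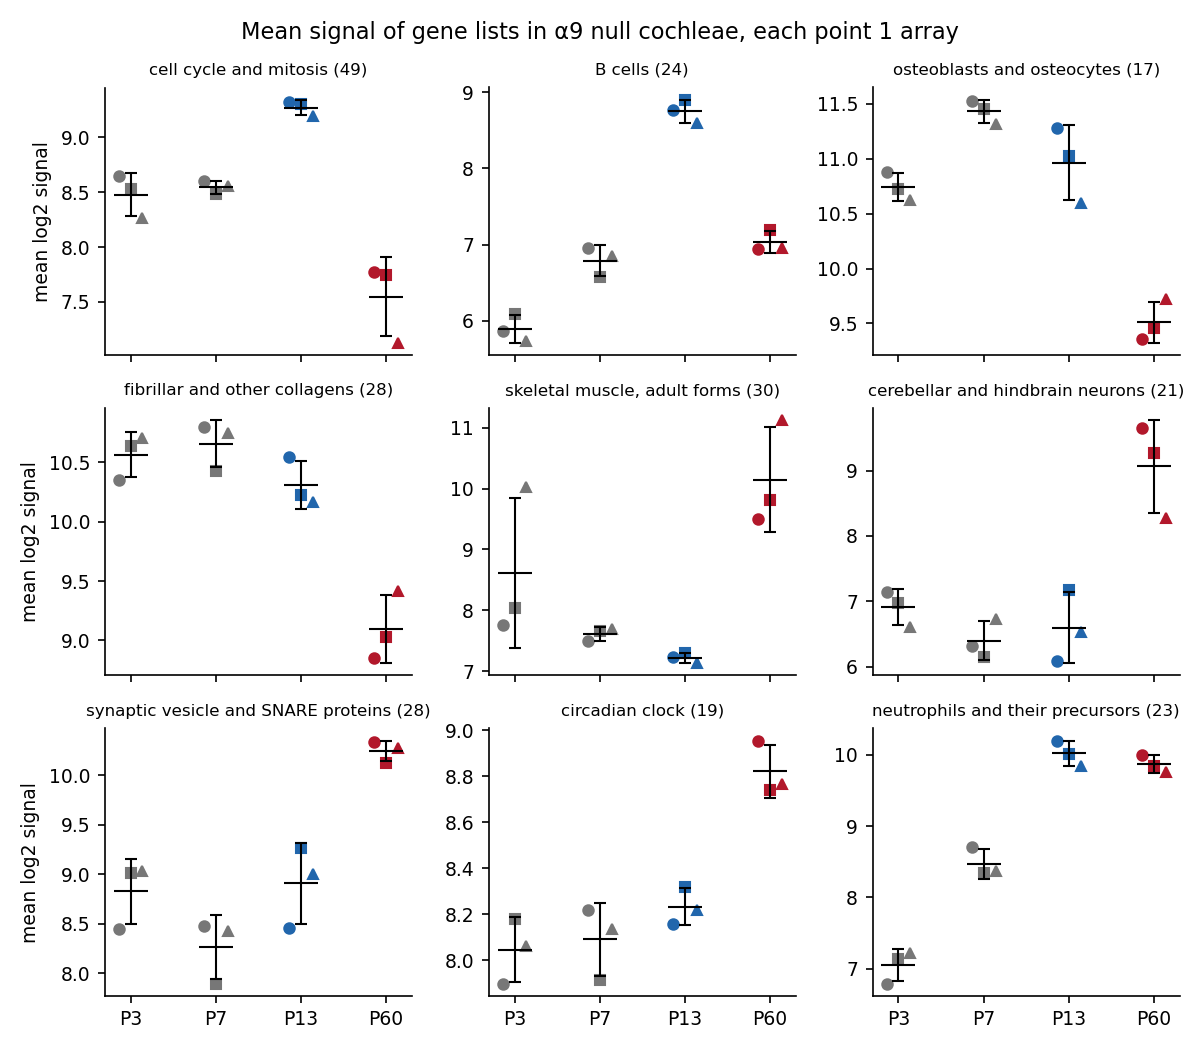
Mean log2 signal of the measured members of 9 gene lists (number of genes in brackets) in the 12 α9 null arrays at P3, P7, P13 and P60. Each point is 1 array, with circle, square and triangle for replicates 1, 2 and 3, with means and SDs of 3 arrays in black; cell cycle genes peak at P13 (9.19 to 9.33).

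Promoter sequences of the cell division genes are shown because the genes fell together and the promoters of mitotic genes are known for shared elements, the CCAAT box and the cell cycle homology region (CHR). The windows were RefSeq promoters of GRCm38.p6, 250 bases before to 50 bases after a start, and 36 of the 43 mitotic genes that fell had 1 or more. The 4 members of largest fall whose last 120 bases before the start held both elements are printed on the strand of the gene, from 5′ to 3′, for Kif11 (chr19:37376262-37376381, plus strand), Top2a (chr11:99024190-99024309, minus strand), Cdk1 (chr10:69352913-69353032, minus strand) and Prc1 (chr7:80294356-80294475, plus strand). Kif11 is the motor that separates spindle poles, Cdk1 the kinase that starts mitosis, and Prc1 a bundler of the central spindle. Capitals mark CCAAT and TTTGAA or their reverse complements.
Kif11: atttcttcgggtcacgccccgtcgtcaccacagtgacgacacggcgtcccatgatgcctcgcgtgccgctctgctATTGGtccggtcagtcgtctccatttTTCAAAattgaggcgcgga
Top2a: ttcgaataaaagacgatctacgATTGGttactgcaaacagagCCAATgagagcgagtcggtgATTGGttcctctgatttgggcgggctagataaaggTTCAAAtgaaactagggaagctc
Cdk1: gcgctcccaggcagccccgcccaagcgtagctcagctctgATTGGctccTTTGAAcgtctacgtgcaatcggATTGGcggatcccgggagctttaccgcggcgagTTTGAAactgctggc
Prc1: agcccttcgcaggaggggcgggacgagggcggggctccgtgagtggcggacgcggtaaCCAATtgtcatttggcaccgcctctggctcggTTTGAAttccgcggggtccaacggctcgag
Uhrf1 (chr17:56303217-56303336, plus strand), the replication gene of largest fall with a window, is printed for comparison, with CCAAT in capitals and no TTTGAA in the stretch.
Uhrf1: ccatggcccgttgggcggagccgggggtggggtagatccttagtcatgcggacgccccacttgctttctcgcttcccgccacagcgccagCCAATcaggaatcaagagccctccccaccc

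Read on both strands, TTTGAA was in 27 of 40 windows of the mitotic genes that fell (67.5%), against 17.9% of all 32851 windows, and in 1 of 29 windows of the replication genes that fell (3.45%). CCAAT was in 30 of 40 windows of the mitotic genes (75%) and 17 of 29 of the replication genes (58.6%), against 37.4% of all. Among genes that rose it was also above that share, in 4 of 5 clock windows (80%), 12 of 23 adult muscle windows (52.2%) and 3 of 6 interferon windows (50%). TTTCCCGC, a form of the E2F site, was in 2 of 40 and 4 of 29 windows (5% and 13.8%), against 1.07% of all. The shares of the lists were not tested against each other. The counts are descriptions of the windows, whose base composition was not compared, and a match is not a bound site. The members were chosen for passing in this comparison.

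Genes of B cells and of erythroid cells were further lists with many members that fell. Of 24 B cell genes 19 fell and 1 rose, with a median of -1.94, and the falls included those that build the receptor of immature B cells. Vpreb1 (gene ID 22362, chromosome 16 of GRCm38.p6, 16868401 to 16869255), part of the surrogate light chain of pre-B cells, had 10.81, 9.49 and 9.56 at P13 and 6.45, 6.80 and 6.53 at P60 and fell by 3.36 (standard error 0.34, limma adjusted p = 0.00201). Rag1, the recombinase that joins immunoglobulin gene segments, had 9.34, 9.55 and 9.05 against 5.91, 6.67 and 5.81. Pou2af1, a coactivator of immunoglobulin genes, fell by 3.68, and Cd79b, a signaling chain of the B cell receptor, fell by 2.64. The adult and P13 pools did not overlap for any of these 4 genes, but Vpreb1, Rag1 and Pou2af1 were picked among genes without overlap. Cd79a, the other signaling chain, had a difference of -1.205 and did not pass (limma adjusted p = 0.156).

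Among genes that antibody-secreting cells express, some rose and some fell. Jchain (gene ID 16069, chromosome 5, 88519809 to 88527897), which links immunoglobulin A and M into polymers, had 5.33, 5.79 and 5.42 at P13 and 9.09, 9.27 and 9.04 at P60 and rose by 3.62 (standard error 0.18, limma adjusted p = 0.000181). Igha, the heavy chain of immunoglobulin A, had 6.35, 6.29 and 6.10 at P13 against 10.65, 10.45 and 11.39 at P60. Mzb1, a chaperone of antibody assembly, had 10.27, 10.05 and 10.10 at P13 against 7.37, 7.71 and 7.08 at P60 and fell by 2.75, and Ighm, the heavy chain of immunoglobulin M, fell by 1.36 in its brightest probe set, though its 11 probe sets disagreed, with a difference of 0.10 for their mean. The B cell count of genes that fell was 17 to 20 without any 1 pool. Of 22 erythroid genes 12 fell and 0 rose, with a median of -1.05, including Epb42, a protein of the red cell membrane skeleton, by 2.35 and the blood group gene Rhd by 1.96. The first 2 genes of that list, Hba-a1 and Alas2, had differences of -1.04 and -0.40 and did not pass. The erythroid count was 7 without P13 replicate 2 and 8 without P13 replicate 3. With only the arrays that held poly-A controls, 1 P13 pool against 3, the erythroid median was -1.08.

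The list of neutrophil genes did not share this fall. Of 23 measured members 1 fell, a count that could arise at the all-gene share of 6.15%. That member was Mmp9, a gelatinase that osteoclasts also make. The list median was 0.10, with a sign that turned on the deposited values (-0.33). S100a8, a subunit of calprotectin, had 13.69, 13.73 and 13.65 at P13 and 14.01, 13.95 and 13.70 at P60. Outside these 23 members, the stefin genes Stfa3 and Stfa2l1, cysteine protease inhibitors of immature myeloid cells, were the 2 largest falls of all. Other stefins had been written into the neutrophil list but were not matched to a measured gene. Stfa3 had 11.35, 11.19 and 11.35 at P13 and 3.74, 4.72 and 3.73 at P60 and fell by 7.23 (standard error 0.28, limma adjusted p = 5.89e-05). Stfa2l1 had 11.92, 11.49 and 11.46 against 5.50, 5.74 and 4.84. The stefins are close copies of each other, so a probe set may read more than 1 of them. Both genes ended near the lower end of the scale, whose lowest deposited value was 2.35, and whether the adult signals exceeded background was not measured, so the size and rank of these falls are those of the log2 scale as deposited and normalized. Of 25 genes of macrophages and complement C1q 0 rose and 1 fell, a count that could also arise at 6.15%. Their median was 0.09, and -0.13 on the deposited values. Mmp12, an elastase of macrophages that is not in this list, rose, with 3.46, 3.19 and 3.87 at P13 and 8.89, 7.16 and 8.92 at P60. The member that fell was Csf1r, the receptor that macrophages need for survival, by 0.89. It did not pass without any 1 pool other than P60 replicate 3. C1qa, a complement gene of macrophages, had a difference of 0.75 that did not pass.

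**Figure D3:**
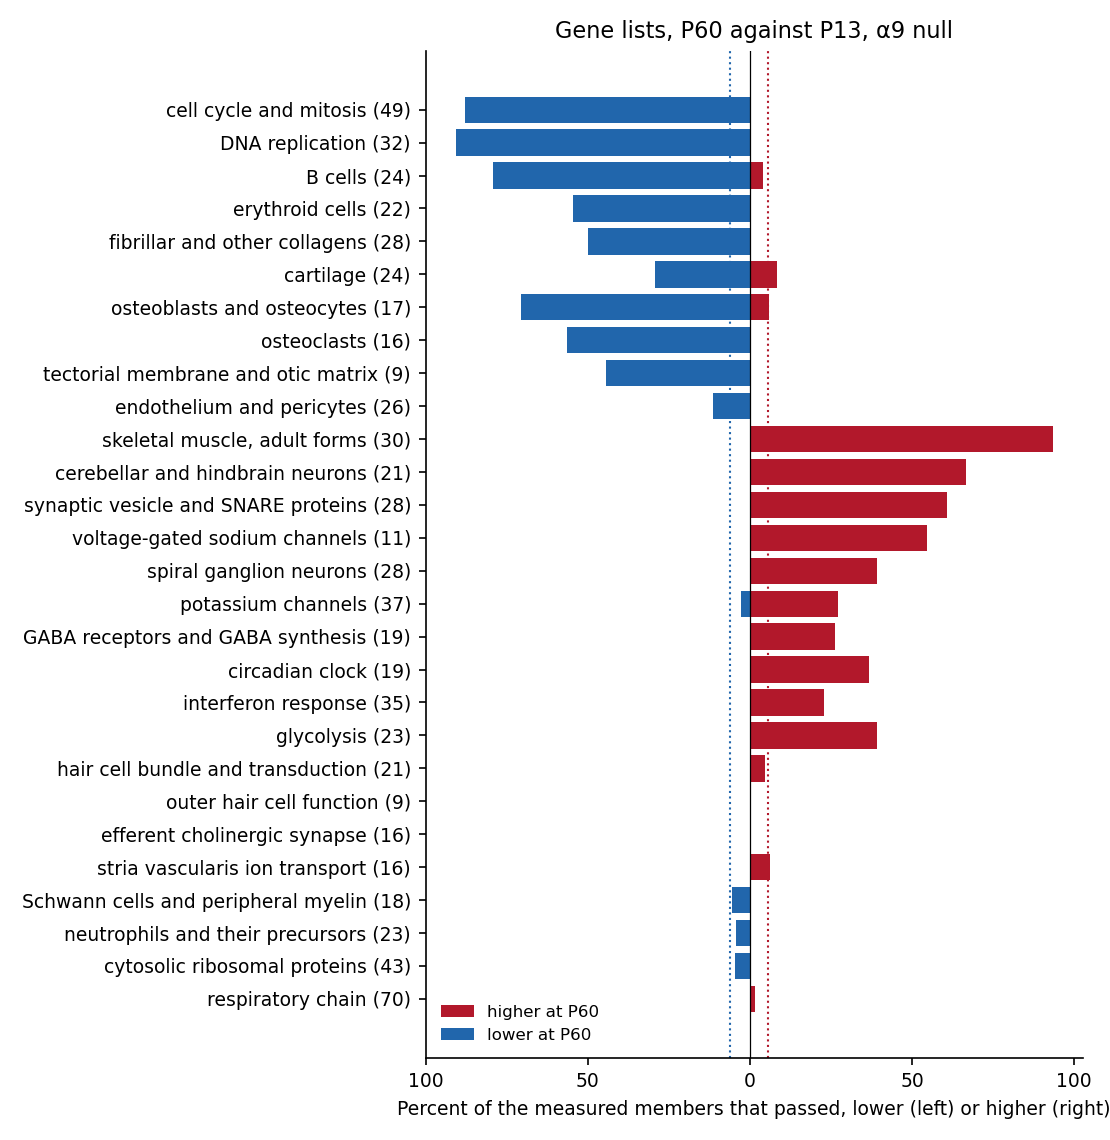
Share of the measured members of 28 gene lists (number of genes in brackets) that passed with a higher (red, right) or lower (blue, left) log2 signal at P60 than at P13 in α9 null cochleae. Dotted lines give the shares over all genes, 5.7% higher and 6.15% lower, which the cell division lists exceed on the left and the list of adult muscle on the right.

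Adult skeletal muscle genes rose most as a list. Of 30 members 28 rose and 0 fell, with a median of 3.06. Myh4 (gene ID 17884, chromosome 11 of GRCm38.p6, 67237812 to 67260447), the myosin heavy chain of the fastest fibers, had 5.33, 7.28 and 6.40 at P13 and 10.46, 11.31 and 11.98 at P60 and rose by 4.92 (standard error 0.53, limma adjusted p = 0.0023). Neb, the giant protein of thin filaments, had 5.20, 6.04 and 5.75 against 9.13, 9.61 and 10.47, and Tnnt3, the fast troponin T, had 7.04, 6.94 and 6.73 against 10.10, 10.50 and 12.30. P60 replicate 3 was the highest pool for each of the 3. Without it 29 members rose, and without any other pool 21 to 26 rose. With the 1 P13 pool that held poly-A controls against the 3 adult pools, the median was 2.88.

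Of 14 developmental muscle genes 3 rose and 1 fell, with a median of 0.30, and 1 rose without any 1 P13 pool or P60 replicate 1. Actc1, the cardiac actin of developing muscle, had 5.69, 5.87 and 5.76 at P13 and 9.30, 10.16 and 10.68 at P60 and rose by 4.27. Myl4, an embryonic myosin light chain, fell by 2.27. The embryonic and neonatal myosin heavy chains did not pass, as Myh3 had 3.92 to 4.04 at P13 and 4.14 to 4.60 at P60, and Myh8 had 3.63 to 4.12 and 3.56 to 4.38. At P3 the 3 pools had 6.40, 7.57 and 10.30 for Myh3, so the highest of them was also the highest for the adult list. The cochlea itself has no skeletal muscle, while the middle ear muscles attach close to it. No source used here gives how much of that muscle was in the pools, and its part in the rise was not tested. The adult muscle list also varied within an age, with a mean log2 signal over the list of 7.76, 8.04 and 10.02 in the P3 pools.

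Neuronal genes rose in several lists. Of 28 genes of synaptic vesicles and SNARE proteins 17 rose and 0 fell, with a median of 1.44. Snap25 (gene ID 20614, chromosome 2 of GRCm38.p6, 136713439 to 136782428), a SNARE protein of vesicle fusion, had 11.46, 12.31 and 12.38 at P13 and 13.77, 13.70 and 13.22 at P60 and rose by 1.51 (standard error 0.28, limma adjusted p = 0.0152). Syt1, the calcium sensor of fast release, had 7.49, 9.34 and 8.49 against 11.29, 10.78 and 10.27, and Syt4 rose by 2.72. P13 replicate 1 was the lowest pool for all 3. The count was 19 without P60 replicate 3, and it was 7 and 8 without P60 replicates 1 and 2, 9 without P13 replicate 3 and 11 without P13 replicate 1. Snap25 did not pass without P60 replicate 1 or 2, nor Syt1 without either of these or P13 replicate 3.

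Of 28 spiral ganglion genes 11 rose and 0 fell, with a median of 1.10. The neurofilament genes that open this list did not pass, as Nefl had 11.94, 12.51 and 12.50 at P13 against 12.49, 12.93 and 13.15 at P60 and Nefm had a difference of 0.52. Gap43, a protein of growing axons, had 5.57, 7.35 and 5.88 against 8.76, 8.13 and 8.90 and rose by 2.33. Scn8a, the sodium channel of nodes of Ranvier, rose by 1.75. Ntrk3, the receptor of neurotrophin 3, rose by 1.24, and Bdnf, a ligand of the sister receptor, by 0.85. The count was 3 and 5 without P60 replicates 1 and 2, 7 without P13 replicate 1 or 3 and 16 without P60 replicate 3. The calls of Gap43 and Scn8a ended without P13 replicate 1 or 3 or P60 replicate 1, that of Scn8a also without P60 replicate 2, that of Ntrk3 without P60 replicate 1, and that of Bdnf without P13 replicate 1 or 2 or P60 replicate 2.

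Of 11 voltage-gated sodium channel genes 6 rose and 0 fell, with a median of 1.77. Scn11a (gene ID 24046, chromosome 9 of GRCm38.p6, 119753763 to 119825456), known from nociceptors of sensory ganglia, had 5.30, 5.26 and 4.86 at P13 and 7.32, 7.57 and 9.67 at P60 and rose by 3.04 (standard error 0.56, limma adjusted p = 0.0146). Scn10a, of the same neurons, rose by 2.22, and Scn2a, an axonal channel of central neurons, had 7.00, 7.84 and 7.26 against 10.24, 9.46 and 8.82. The adult pools thus ranked in opposite order for these genes, with replicate 3 highest for Scn11a and lowest for Scn2a. Scn9a had a difference of 1.96 and did not pass (limma adjusted p = 0.0517). The count was 1 without P13 replicate 1, 2 without P13 replicate 3 and 4 without P60 replicate 2. Without P13 replicate 1 the calls of Scn11a, Scn10a and Scn2a ended, without P13 replicate 3 those of Scn11a and Scn10a, and without P13 replicate 2 that of Scn10a. Calcb, a gene of the calcitonin gene-related peptides known from sensory ganglia and named after its values were seen, had 4.28, 4.05 and 4.40 at P13 and 6.13, 6.94 and 8.63 at P60, a call that ended without P13 replicate 1 or 2.

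Of 37 potassium channel genes 10 rose and 1 fell, with a median of 0.73. Kcnip4, an auxiliary subunit of Kv4 channels, had 5.81, 6.93 and 7.18 at P13 and 9.59, 9.61 and 9.04 at P60, and Kcnd3, a pore subunit of these channels, rose by 2.38. Kcnd2, the other Kv4 pore gene of the list, had 4.87, 7.56 and 6.23 against 10.66, 10.24 and 7.58 and did not pass (limma adjusted p = 0.0537). Kcnab1, a β subunit of Kv1 channels, rose by 1.66. The count of those that rose was 5 without P13 replicate 1 or 3 or P60 replicate 1, and 6 without P13 replicate 2.

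Of 19 genes of GABA receptors and GABA synthesis 5 rose and 0 fell, with a median of 1.39. The largest rise of all genes was that of Gabra6 (gene ID 14399, chromosome 11 of GRCm38.p6, 42306437 to 42321072), a GABA-A receptor subunit known from cerebellar granule cells. Its log2 signal was 3.90, 7.03 and 5.35 at P13 and 12.38, 11.72 and 9.42 at P60, a difference of 5.75 (standard error 0.92, limma adjusted p = 0.00915). Gad1, an enzyme that makes GABA, had 6.05, 7.93 and 6.33 against 11.45, 11.04 and 8.87, and Gabrb2 rose by 2.68. Gabbr1, a subunit of the GABA-B receptor, rose by 1.39. The count was 3 without P13 replicate 1 or 3 or P60 replicate 1 or 2, and 10 without P60 replicate 3. Gad1 and Gabrb2 did not pass without P13 replicate 1 or 3 or P60 replicate 1 or 2.

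Markers of cerebellar and hindbrain neurons also rose. Of 21 members 14 rose and 0 fell, with a median of 1.98, and the mean log2 signal over the list was 6.09, 7.17 and 6.54 in the P13 pools and 9.64, 9.27 and 8.27 in the P60 pools. Cbln3, of granule cells, had 4.89, 5.91 and 5.85 against 12.29, 11.35 and 9.50, and Pcp2, of Purkinje cells, had 5.80, 7.11 and 5.44 against 11.64, 11.15 and 9.52. Neurod1 had a difference of 4.41 and did not pass (limma adjusted p = 0.0623). In the adult pools the order was the same for Gabra6, Cbln3, Pcp2 and Gad1, with replicate 1 highest and replicate 3 lowest. The list shares Gabra6, Gabrb2, Calb1, Pvalb and Car8 with other lists here. The study's methods state that fragments of cerebellum were removed in dissection. The part of cerebellar RNA in the rise of the neuronal lists was not tested. The cerebellar count was 8 without P13 replicate 1 or 3 or P60 replicate 1 or 2.

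The glutamate receptor genes Gria4 and Gria1 also rose, by 1.96 and 3.65. Gria1 had 3.67, 7.07 and 5.04 at P13 against 9.97, 9.53 and 7.22 at P60, so the lowest adult pool was only a little above the highest P13 pool. Neither passed without P13 replicate 1 or 3 or P60 replicate 1 or 2, and Gria4 also not without P13 replicate 2. Of 20 genes of calcium buffers and pumps 8 rose and 1 fell. Calb1, a calcium buffer of many neurons, had 6.65, 8.37 and 8.22 against 11.87, 11.60 and 9.94, and Pvalb, a buffer of neurons and fast muscle, rose by 1.34. The count of those that rose was 4 without P13 replicate 1 or P60 replicate 1 or 2 and 5 without P13 replicate 2 or 3. Pvalb did not pass without P13 replicate 2 or P60 replicate 1 or 2.

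**Figure D4:**
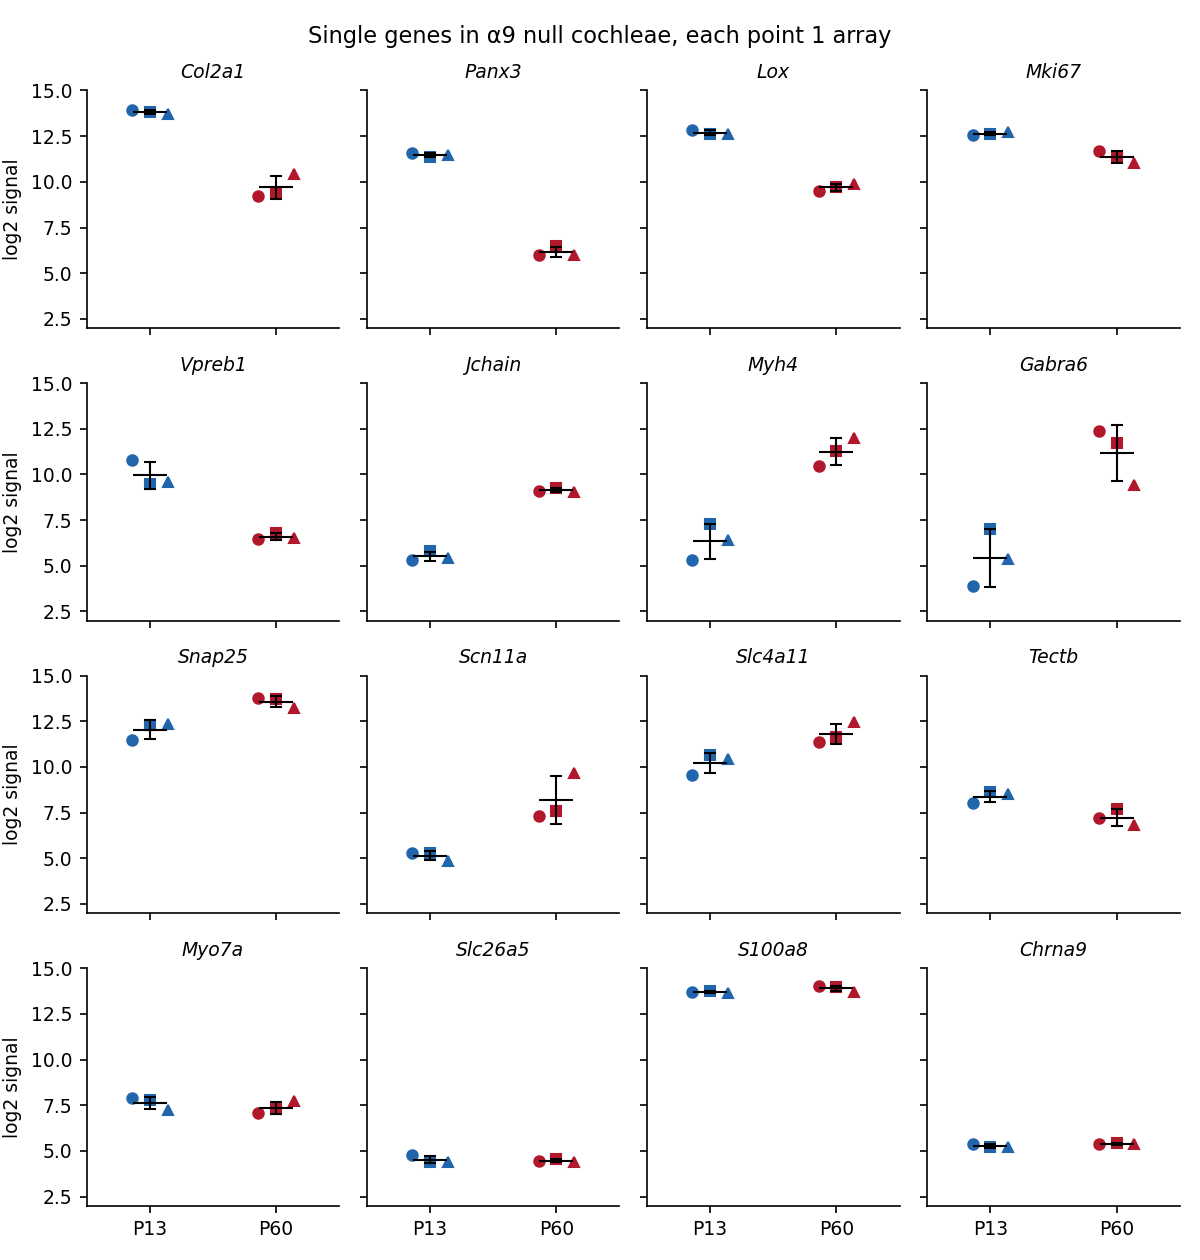
Log2 signal of 16 genes in the α9 null arrays of P13 (blue) and P60 (red). Each point is 1 array, with circle, square and triangle for replicates 1, 2 and 3, with means and SDs of 3 arrays in black; Gabra6 and Scn11a spread most among the adult pools, and Slc26a5, Myo7a, S100a8 and Chrna9 overlap between ages.

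Lists of hair cells and of the efferent synapse had few members that passed, at counts that so few genes could show at the all-gene shares of 5.7% and 6.15%. Of 21 genes of the hair bundle and transduction 1 rose and 0 fell, with a median of 0.15 that was -0.09 on the deposited values. That member was Eps8l2, an actin regulator of stereocilia, with 8.31, 8.15 and 7.78 at P13 and 8.85, 8.71 and 8.78 at P60 (limma adjusted p = 0.0463), which did not pass without any 1 of the 6 pools. Of 9 outer hair cell genes, 9 hair cell transcription factors and 16 genes of the efferent cholinergic synapse, 0 passed in either direction. On the deposited values 3, 2, 1 and 3 members of these lists were lower. The efferent list is mixed. It also holds genes of the muscle receptor and the neuromuscular junction, such as Chrna1 and Musk, and lacks Chrna10, which was not matched here. Its count thus does not describe the efferent synapse alone. Kcnn2, the calcium-activated potassium channel through which the α9α10 receptor inhibits hair cells, had 6.69, 7.49 and 7.61 against 8.71, 8.78 and 7.42, a difference of 1.04 (standard error 0.40, limma adjusted p = 0.142). Atoh1, which directs cells to become hair cells, had 5.19 to 5.35 and 5.06 to 5.39.

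Of 11 ribbon synapse genes 3 rose, namely Bsn, Pclo and Rims2, scaffold proteins of the active zone that neurons of the brain also express. Bsn had 6.14, 7.11 and 6.55 against 9.43, 8.73 and 9.26. Otof, the otoferlin gene needed for release at the hair cell ribbon, had 7.58, 7.57 and 7.04 against 7.75, 7.91 and 7.91, a difference of 0.46 that did not pass. The ribbon count was 1, with Bsn left, without P13 replicate 1 or 3 or P60 replicate 1 or 2.

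Of 9 genes of the tectorial membrane and otic matrix 4 fell and 0 rose, with a median of -0.24. Tectb, the gene of β-tectorin, had 8.02, 8.62 and 8.51 at P13 and 7.19, 7.69 and 6.80 at P60, after means of 12.55 at P3 and 12.19 at P7. Most of its decline thus came before P13. Tecta, of α-tectorin, had 6.83 to 7.12 at P13 and 6.73 to 7.24 at P60 after 10.76 at P3 and did not pass. Oc90, an otoconial matrix gene, had 7.66, 7.16 and 7.15 against 5.07, 5.19 and 5.74, and Emilin2, a glycoprotein of the basilar membrane, had 11.71, 11.95 and 11.82 against 9.41, 9.38 and 9.29. The count was 2 without P13 replicate 2 or P60 replicate 1, and Tectb did not pass without these or P13 replicate 3.

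Of 15 fibrocyte genes 3 rose and 1 fell, against 5.7% of all genes higher and 6.15% lower. Only 1 rose without P13 replicate 1 or 3 or P60 replicate 2, and 1 rise or 1 fall could arise at these shares. Slc4a11, a transporter of fibrocytes, had 9.57, 10.64 and 10.44 at P13 and 11.37, 11.64 and 12.44 at P60, and Otor, a secreted protein of fibrocytes, had 13.09, 13.04 and 13.34 against 11.41, 11.75 and 11.71. Of 16 genes of ion transport in the stria vascularis 1 rose, Atp13a5, by 0.88, and it passed only with all 6 pools or without P60 replicate 3. That count could arise at the all-gene share of 5.7% higher. Kcnq1 and Kcne1, the 2 subunits of the channel that secretes potassium into endolymph, had differences of -0.19 and -0.07. Of 22 connexins and claudins 3 fell, against 6.15% of all genes, led by Gja1 with a difference of -1.05. Gjb2, the main connexin of cochlear gap junctions, had 12.81, 12.82 and 12.98 against 12.97, 13.11 and 13.33 and did not pass. The connexin and claudin count was 0 without P13 replicate 1 or 3, and 1 without P13 replicate 2 or P60 replicate 1. Gja1 did not pass without P13 replicate 1 or 3, and Slc4a11 not without these or P60 replicate 2.

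Of 18 genes of Schwann cells and peripheral myelin 1 fell, Pmp2, a fatty acid carrier of myelin, with 7.83, 7.97 and 8.03 at P13 and 5.43, 5.40 and 6.27 at P60. So few genes could show 1 such fall at the all-gene share of 6.15%. Mbp, myelin basic protein, had 13.39, 13.90 and 13.92 against 13.86, 13.77 and 13.80. Capn1, Adam10, Nedd8 and Stom, which the study examined together with Mbp, had differences of 0.52, -0.59, -0.05 and -0.40, and none passed.

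Counts of housekeeping lists depended on the scaling. Of 70 respiratory chain genes 1 rose, of 31 proteasome genes 0 passed, and of 43 cytosolic ribosomal protein genes 2 fell, with medians of 0.23, -0.10 and -0.19. On the deposited values 14 proteasome and 26 ribosomal genes were lower, and with arrays centred on their medians 2 and 11. The ribosomal count was 0 without any 1 P13 pool or P60 replicate 1, 1 without P60 replicate 2 and 5 without P60 replicate 3, and the respiratory chain count was 0 without any 1 pool other than P60 replicate 3. Of 21 genes of cholesterol synthesis 0 passed in limma. The medians of the respiratory chain and of cholesterol synthesis turned negative on the deposited values, at -0.19 and -0.22. Of 23 glycolysis genes 9 rose and 0 fell, with a median of 0.73. Eno3 and Pgam2, which rose by 2.81 and 2.71, are the muscle forms of their enzymes, and Aldoc, which rose by 2.57, is the aldolase of brain. The count was 4 or 5 without P13 replicate 1, 2 or 3 or P60 replicate 1. With only the arrays that held poly-A controls, 1 P13 pool against 3, the glycolysis median was 0.73.

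Of 19 circadian clock genes 7 rose and 0 fell, with a median of 0.60. Dbp, an output factor of the clock, had a mean of 9.54 (SD 0.49, n = 3) at P13 and 11.50, 11.46 and 11.06 at P60 and rose by 1.80 (standard error 0.27, limma adjusted p = 0.00696). Nr1d1, a repressor in the clock, had 6.56, 6.83 and 6.83 against 8.41, 8.50 and 10.34, and Per2 rose by 1.26. No source used here gives the hour of dissection. The count was 2 without P13 replicate 1, 3 without P13 replicate 2 and 4 without P13 replicate 3 or P60 replicate 1. Nr1d1 did not pass without any 1 P13 pool, nor Per2 without P13 replicate 1.

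Of 35 interferon response genes 8 rose and 0 fell, with a median of 0.41. Oasl2, a member of the oligoadenylate synthetase family, had 5.71, 6.08 and 5.59 at P13 and 8.01, 7.68 and 8.18 at P60 and rose by 2.17 (standard error 0.20, limma adjusted p = 0.0018). Ifit1, which binds foreign RNA caps, had 6.06, 6.28 and 6.33 against 8.02, 7.78 and 7.99, and Ifit3 rose by 1.70. Oasl2, Ifit1 and Ifit3 are among the members of largest difference that passed, so a lack of overlap between ages adds nothing to their calls. The count was 4 without P13 replicate 1 or 2 and 5 without P13 replicate 3.

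Promoters of the interferon genes are shown because the interferon-stimulated response element is a known shared feature of such genes, and its core was searched on both strands as GAAA, any 2 bases, and GAAA. It was in 3 of 6 windows of the members that rose, against 3.44% of all windows. Among members that rose, Ifit1 (chr19:34640769-34640888, plus strand of GRCm38.p6) and Gbp2 (chr3:142620543-142620662, plus strand), a guanylate-binding protein, held it in the last 120 bases before the start, marked in capitals.
Ifit1: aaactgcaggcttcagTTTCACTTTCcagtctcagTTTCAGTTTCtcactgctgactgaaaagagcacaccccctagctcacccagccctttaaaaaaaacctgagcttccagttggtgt
Gbp2: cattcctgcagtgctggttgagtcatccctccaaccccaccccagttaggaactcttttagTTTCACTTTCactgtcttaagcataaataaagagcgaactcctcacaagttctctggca
Elements searched for the clock and muscle lists in particular matched only 1 or 2 windows each of their members that passed. CACGTG, the E box of the clock, was in 1 of 5 windows of the clock genes (20%) against 7.15% of all. The CArG box and the MEF2 site were in 2 and 1 of 23 windows of the muscle genes (8.7% and 4.35%) against 1.63% and 0.557% of all. These shares lay above those of all windows but rest on too few matches to compare, and they were not tested.

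Growth and signaling lists had small counts, to be read against 5.7% of all genes higher and 6.15% lower. Igf1, a growth factor, had 11.52, 11.62 and 11.69 at P13 and 10.10, 10.77 and 10.26 at P60, and 3 of 20 genes of the IGF pathway fell. Of 44 Wnt genes 5 fell and 2 rose, and the falls included the secreted inhibitors Wif1 and Dkk1, with differences of -2.50 and -2.36. Without P13 replicate 1 or 2 or P60 replicate 1, 3 Wnt genes fell and 0 rose, and without P60 replicate 2, 4 fell and 0 rose, while 1 rose without P13 replicate 3. Dio2, the enzyme that makes active thyroid hormone in the cochlea, had 10.05, 10.50 and 10.54 against 8.96, 8.73 and 9.20 and fell by 1.40, and 2 of 11 genes of the thyroid hormone pathway fell. Of 19 imprinted growth genes 3 fell and 1 rose, including Grb10, an adaptor that restrains growth, by 1.66.

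The same comparison in wild type cochleae was set beside that of the knockout. There 390 genes rose (2.14%) and 681 fell (3.74%), and 759 genes passed in both genotypes in the same direction, which is 35.2% of the knockout genes and 70.9% of the wild type genes. Differences of the 2 genotypes over all genes had a Pearson r of 0.801, a description across genes, which are not independent replicates. Wild type P13 replicates 1 and 2 and P60 replicate 1 had low 5′ control signal, and without them, which left 1 array against 2, no wild type gene passed in limma, with 3693 at an unadjusted p under 0.05.

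In wild type 42 cell division genes, 16 B cell genes, 14 collagens and 11 osteoblast genes fell. The cartilage list had 4 lower in wild type with a median of -0.17, the IGF pathway 0 lower, and the thyroid hormone pathway 1 lower and 2 higher. Of the lists that rose in the knockout, 5 of 11 sodium channel genes, 5 of 35 interferon genes, 5 of 28 spiral ganglion genes and 6 of 28 synaptic vesicle genes rose in wild type, with medians of 1.60, 0.82, 1.01 and 1.04. Of 30 adult muscle genes 0 passed in wild type and of 21 cerebellar genes 1, with medians of 1.35 and 0.79. The mean muscle signal of the wild type P13 pools was 8.87, 7.34 and 9.41, against 7.14 to 7.29 in the knockout. The test of the difference itself, an age by genotype interaction in limma, passed for 0 of 18195 genes (0%), with 529 at an unadjusted p under 0.05. For Myh2 the interaction was 2.71 and for Gabra6 3.22, each with an adjusted p of 1. No gene was thus shown to change differently between P13 and P60 in the knockout.

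**Figure D5:**
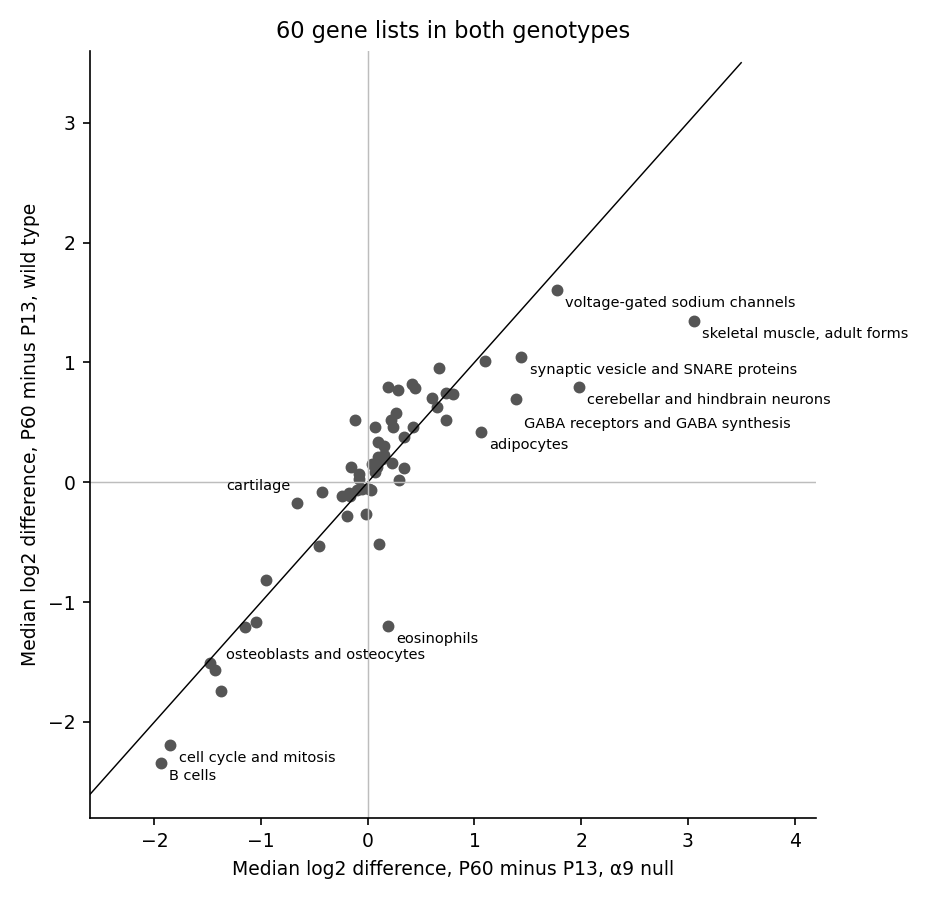
Median log2 difference, P60 minus P13, of the measured members of 60 gene lists in α9 null (horizontal) and wild type (vertical) cochleae, each point 1 list and the line equal values. Cell division and B cell lists lie low in both genotypes, and adult muscle lies at 3.06 in α9 null and 1.35 in wild type.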

How the data were processed

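RNA of pooled cochleae was hybridised to Affymetrix mouse arrays, 24 in all. Per the study's methods, the authors corrected the background by RMA, normalized by quantiles and summarised the probes of a set by Tukey's biweight. The deposited values are log2 signals of 45101 probe sets, from 2.35 to 15.00.

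The deposited log2 values were quantile-normalized over the 24 arrays, since their medians differed. Of the probe sets 34958 named 1 gene, 932 several and 9211 none, and the probe set of highest mean log2 signal was kept for each of 18195 genes. Names and positions are those of RefSeq on GRCm38.p6, in which 18033 gene IDs were found. P60 and P13 were compared in limma 3.58.1 (R 4.3.3) on the 6 arrays of a genotype, with lmFit, eBayes and Benjamini-Hochberg adjustment over all genes, and the interaction on 12 arrays. The threshold was an adjusted p of 0.05. Tables and plots were made with matplotlib 3.10.9, pandas 2.3.3, numpy 2.4.6 and scipy 1.17.1 under Python 3.11.15. The fit was tested on simulated data.

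The genes named were drawn from the 10 largest rises and falls with groups that do not overlap and from genes that the study names. Also drawn on were, for each of 60 lists, the first 2 members and up to 4 members of largest difference that passed. Not all of these genes are in the text, and some lists are not described. Other members were named after their values were seen. The members and the lists, of which 1292 genes were measured and 173 entries were not analysed here, were chosen with earlier results of these data known. Alternatives covered scaling, filters, the choice of probe set, covariates, the arrays in the fit and leaving out each array. Those for wild type were chosen after seeing the data. Signal and the number of arrays limit the precision.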

Additional observations from a re-analysis of the deposited data

How the results depend on the processing

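Against 1038 genes higher and 1119 lower at P60 in the knockout, leaving out 1 array gave 369 to 1558 higher and 527 to 1431 lower, with 166 to 448 and 249 to 326 past a log2 difference of 1.5. The deposited values gave 689 higher and 4282 lower, 498 of the latter past 1.5. Genes above the median signal gave 578 higher, with 134 higher and 183 lower past 1.5. Array weights gave 2894 higher and 3236 lower, poly-A controls as a covariate 627 and 664, and only the arrays with these controls 106 and 118, all past 1.5. The cause of these shifts was not tested, beyond the fewer arrays or genes that some of these settings use. The replicate number as a block gave 444 and 522, but same-numbered arrays did not deviate together, with correlations of their deviations of -0.24, 0.03 and -0.29. In wild type, leaving out the arrays of low 5′ signal gave 0 higher and 0 lower, and the deposited values 244 and 2410. The interaction passed for 0 genes in limma under all alternatives run, with 215 to 2296 at an unadjusted p under 0.05. Of 131 genes among those named in the text 98 passed. Of these 78 also passed with the block, 76 with the covariate, 41 with only the poly-A arrays and 75 to 96 when 1 array was left out. None changed direction in the settings run, except Ighm, whose difference was 0.10 as the mean of its probe sets. Signal below the array median limits hair cell genes such as Slc26a5.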
